A study of Mus musculus with 11 samples.

Results

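The miR-200 family is a group of microRNAs (miRs), short RNAs of about the length printed below that lower the output of the messenger RNAs they pair with. Its guide strands, the arms that are mainly loaded into the silencing complex, were taken as the assays whose row name equals mmu-miR-200a, mmu-miR-200b, mmu-miR-200c, mmu-miR-141 or mmu-miR-429 once the trailing hyphen and assay number are removed. This gave 5 assays of the 517 miR assays on each array. The rule reads row names only.

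All 5 members were read by PCR in whole-aorta RNA of 11 mice. The mice were female apoE-/- animals, which lack apolipoprotein E, carry high blood cholesterol and are prone to atherosclerosis. The control group held 4 mice on a normal diet. The other groups held 4 mice after 3 months and 3 mice after 10 months of a high fat diet, in which casein made up 19.5%, crude fat 21% and cholesterol 0.15%. The labels describe the control aortas as free of atherosclerosis and the aortas of both diet groups as atherosclerotic, give apoE-/- as the only strain name, and number every sample as a separate biological replicate. The age label reads 6 to 8 weeks for every mouse, which may be the start or the time of collection, and no label says how long control mice lived, so time on diet and age cannot be told apart. For the 10-month mice the treatment label reads 3 months. Their titles read 10 months and were followed. The design text also counts 4 replicates per group where 3 samples stand for 10 months.

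miR-200 miRs are known as markers and keepers of the epithelial state. They repress ZEB1 and ZEB2, transcription factors that silence the E-cadherin gene, and ZEB1 and ZEB2 in turn repress the genes of the miR-200 family, so that the miRs and the factors hold each other down. The aortic wall is built mainly of smooth muscle, endothelium and fibroblasts, and has no layer of classical epithelium.

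The mature sequences show what sets the members apart, since the seed (bases 2 to 8, in capitals) is the part that selects targets. They are given 5′ to 3′ from RefSeq on GRCm38.p6, where all 5 guide strands matched an entry under the same name with the suffix -3p.
mmu-miR-200a: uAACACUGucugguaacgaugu
mmu-miR-141: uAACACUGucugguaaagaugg
mmu-miR-200b: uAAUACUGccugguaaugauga
mmu-miR-200c: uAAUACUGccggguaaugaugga
mmu-miR-429: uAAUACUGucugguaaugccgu

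Seeds divide the family into 2 groups. mmu-miR-200a and mmu-miR-141 share AACACUG, and mmu-miR-200b, mmu-miR-200c and mmu-miR-429 share AAUACUG. Counted from the 5′ end, mmu-miR-200a and mmu-miR-200b differ within the seed by C4U and beyond it by U9C, C17U and U22A. mmu-miR-200a and mmu-miR-141 are identical at 20 of 22 positions and differ by C17A and U22G. mmu-miR-200b and mmu-miR-200c are also identical at 20 of the first 22 positions and differ by U11G and A22G. Strands this alike can be amplified in part by each other's assays, and the specificity of the assays was not tested.

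The genes form 2 clusters that cut across the seeds, and all lie on the minus strand. mmu-miR-200b (chr4:156055685-156055706), mmu-miR-200a (chr4:156054911-156054932) and mmu-miR-429 (chr4:156053916-156053937) lie within 1846 bases, inside the annotated span of the long noncoding RNA gene Gm13648 and between the coding genes Ttll10 and 9430015G10Rik. mmu-miR-200c (chr6:124718324-124718346) and mmu-miR-141 (chr6:124717917-124717938) lie within 477 bases, between Phb2 and Ptpn6. No exon or intron boundaries were in the annotation used. Each cluster holds members of both seeds.

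Both deposited tables are on a log2 scale. A threshold cycle is the PCR cycle at which product crosses a set line, so a delay of 1 cycle means 2 times less template if template doubles per cycle, which was not checked. Wells at 35 cycles or later, including those listed at 40, were counted as not detected and set to 35. A level is minus the cycle number relative to the array's mean over the 285 miRs that all 11 mice had, so a higher level is more of the miR. Arrays detected 322 to 380 of 517 miRs, with mean cycles of those 285 miRs from 23.2 to 26.9, latest in replicate 2 of the 10-month group. Neither number differed between groups beyond the spread between mice (exact two-sided permutation p from 0.429 to 0.914).

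The epithelial family was measurable in aorta, but was read later than the smooth muscle and endothelial markers. mmu-miR-200a, mmu-miR-200b, mmu-miR-200c and mmu-miR-141 were detected in 11 of 11 mice and mmu-miR-429 in 10 of 11. By mean cycle over the 11 mice, mmu-miR-200a ranked 183 of 517 (26.1 cycles), mmu-miR-200b 190 (26.4 cycles), mmu-miR-200c 191 (26.4 cycles), mmu-miR-429 217 (27.2 cycles, its undetected well at 40) and mmu-miR-141 271 (29.3 cycles). miR-145 of contractile smooth muscle came first of all assays at 12.1 cycles, the endothelial miR-126-3p had rank 3 at 15.4 and miR-143, the cluster partner of miR-145, rank 8 at 16.4. Of the markers shared by fibroblasts and smooth muscle, miR-199a-3p came at 19.8 cycles and miR-214 at 20.4. miR-199a-5p was detected in 3 of 11 mice only. In control aortas mmu-miR-200a crossed the line 14.0 ± 1.17 cycles (SD, n = 4) after miR-145 and 10.3 ± 0.80 cycles (SD, n = 4) after miR-126-3p. Most listed markers of other tissues were read in all 11 mice as well. Those of blood cells ran from 18.4 cycles (miR-150) to 27.4 (miR-142-5p), with miR-142-3p at 21.3. Those of striated muscle ran from 17.1 cycles (miR-133a) to 25.6 (miR-206), with miR-1 at 23.2. The liver miR-122 came at 24.4 cycles. Of the neural markers, miR-9 came at 24.2 cycles and miR-124 was detected in 4 of 11 mice. Assays differ in efficiency, so these ranks order assays and not molecules. In whole aorta fewer cells of a type and less RNA per cell cannot be told apart, and neither can vessel-wall cells and epithelial cells of adhering tissue.

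**Figure D1:**
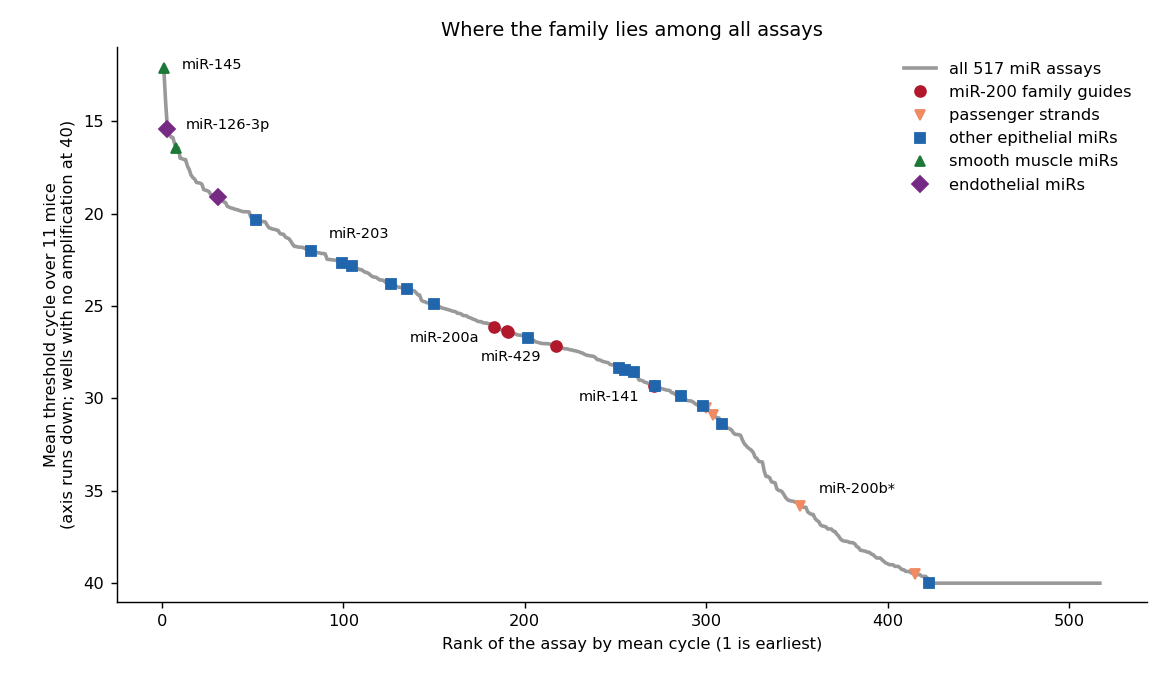
Mean threshold cycle over 11 mice (y axis, running down, wells with no amplification at 40) of all 517 miR assays against their rank (x axis), with the miR-200 guide strands, their passenger strands, other epithelial miRs and the smooth muscle and endothelial markers as points. The guide strands lie between rank 183 and rank 271, while miR-145 holds rank 1 and miR-126-3p rank 3.

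Other epithelial miRs were present too, in a broad range. The list held 17 names, of which 16 had an assay, 13 were detected in every mouse and 1 (miR-449b, of ciliated cells) in none. The other listed miRs of ciliated cells were read in 11 of 11 mice. Of these, miR-34b-3p came at 24.9 cycles, miR-449a at 28.4 and miR-34c at 29.3. miR-203 of stratified epithelium ranked 82 at 22.0 cycles, earlier than any member of the miR-200 family, whereas miR-205 of basal epithelium ranked 286 at 29.9 cycles and was detected in 10 of 11 mice. miR-192 and miR-194, expressed in gut, liver and kidney, came at 22.8 and 23.8 cycles. miR-215, listed with them for gut and kidney, came at 30.4 cycles. The earliest of the list was miR-31, at 20.4 cycles and rank 52. The latest with any reading was miR-96, at 31.4 cycles and detected in 10 of 11 mice. Its cluster partners miR-182 and miR-183 came at 24.1 and 28.6 cycles. miR-375 of islets and secretory epithelium came at 28.4 cycles.

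In the chromosome 4 cluster, mmu-miR-200a of the control aortas stood at -1.45, -2.70, -1.30 and -2.27 in replicates 1 to 4. After 3 months it stood at -3.02, -1.33, -2.05 and -1.82, and after 10 months at -0.69, -2.12 and -1.62. The 3 groups overlapped, with the highest level in replicate 1 of the 10-month group and the lowest in replicate 1 of the 3-month group. Group means were -1.48 ± 0.73 (SD, n = 3) at 10 months, -1.93 ± 0.67 (SD, n = 4) in control and -2.06 ± 0.71 (SD, n = 4) at 3 months, and no neighbours in this order differed beyond their spread.

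mmu-miR-200b, which targets ZEB1 and ZEB2 through the other seed, stood at -2.64, -2.70, -0.98 and -1.44 in controls. It stood at -2.50, -2.20, -1.44 and -0.82 after 3 months and at -1.97, -3.95 and -2.11 after 10 months. Only replicate 2 of the 10-month group lay outside the range of the controls among the 10-month mice. Its means ran from -1.74 ± 0.76 (SD, n = 4) at 3 months through -1.94 ± 0.86 (SD, n = 4) in control to -2.68 ± 1.10 (SD, n = 3) at 10 months, again within the spread.

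mmu-miR-429, of the same seed as mmu-miR-200b, was the member with an undetected well. Its control levels were -1.79, -9.70, -1.19 and -1.76, the second being the well at 40 cycles set to 35. The levels were -3.31, -1.35, -1.59 and -0.96 after 3 months and -1.04, -1.83 and -2.32 after 10 months. In that control mouse the neighbours in the cluster were both read at 27.994 cycles, the only case over the 11 arrays in which amplified wells in adjoining rows had the same cycle value to the 3 decimals given. The mean was -3.61 ± 4.07 (SD, n = 4) in controls, -1.80 ± 1.04 (SD, n = 4) at 3 months and -1.73 ± 0.65 (SD, n = 3) at 10 months.

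In the chromosome 6 cluster, mmu-miR-200c, in human cells a strong repressor of ZEB1, stood at -3.96, -2.57, -2.52 and -0.69 in controls. It stood at -2.89, -1.78, -1.26 and -0.06 after 3 months and at -1.77, -3.52 and -2.27 after 10 months. The highest level of each of the first 2 groups was in replicate 4, and the control range held all 3 of the 10-month mice. Means were -1.50 ± 1.17 (SD, n = 4) at 3 months, -2.44 ± 1.34 (SD, n = 4) in control and -2.52 ± 0.90 (SD, n = 3) at 10 months.

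mmu-miR-141, its cluster partner with the seed of mmu-miR-200a, was the latest member. It stood at -6.67, -6.78, -4.16 and -3.89 in controls, at -3.06, -4.63, -5.76 and -4.19 after 3 months and at -4.66, -7.02 and -4.51 after 10 months. Controls 1 and 2 lay lower than all 4 of the 3-month mice, and controls 3 and 4 lay among them. Means were -4.41 ± 1.12 (SD, n = 4) at 3 months, -5.37 ± 1.57 (SD, n = 4) in control and -5.40 ± 1.41 (SD, n = 3) at 10 months.

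**Figure D2:**
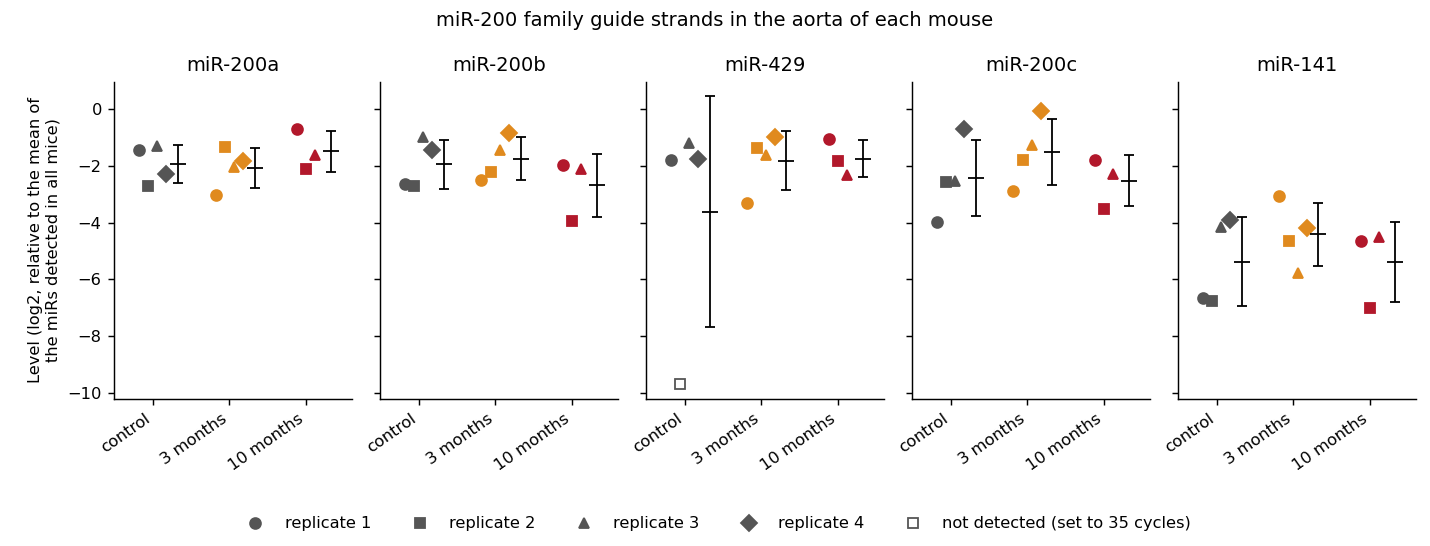
Level of each guide strand (y axis, log2, relative to the array's mean over miRs detected in all mice) in the 11 mice by group, with the symbol giving the replicate, the bar the group mean ± SD and the open symbol the undetected well. The groups overlap in all 5 panels, and the control mean of miR-429 is drawn down by 1 undetected well at -9.70.

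The spread within groups was wide for this family. Around its group means the residual SD was 0.70 for mmu-miR-200a, 0.90 for mmu-miR-200b, 1.18 for mmu-miR-200c and 1.37 for mmu-miR-141 on the log2 scale. The median over the 285 miRs detected in every mouse was 0.56. Of these 285 miRs, 66.0% varied less than mmu-miR-200a, 79.6% less than mmu-miR-200b, 91.9% less than mmu-miR-200c and 96.5% less than mmu-miR-141. The 285 miRs were not matched by cycle, and whether assays read as late spread as widely was not tested. Among other listed miRs, miR-34c (29.3 cycles) had SDs of 1.57, 1.79 and 0.62 in control, 3-month and 10-month mice. miR-142-5p (27.4 cycles) had 0.66, 0.50 and 0.53.

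The first contrast, 3 months of the diet against control, concerns the early stage. No member passed the test: 0 of 5 rose, 0 of 5 fell, and limma called 0% of the 353 miRs tested (limma adjusted p under 0.05, Benjamini-Hochberg over all 353). All 5 members were among the 353, which were detected in at least 3 mice of at least 1 group. The log2 fold was 0.94 for mmu-miR-200c (SE 0.77, 95% interval -0.77 to 2.65, limma adjusted p = 0.764). For mmu-miR-141 it was 0.97 (SE 0.88, 95% interval -1.0 to 2.93, limma adjusted p = 0.791). In the chromosome 4 cluster it was -0.13 for mmu-miR-200a (SE 0.48, 95% interval -1.20 to 0.94, limma adjusted p = 0.956) and 0.20 for mmu-miR-200b (SE 0.60, 95% interval -1.12 to 1.53, limma adjusted p = 0.940). These intervals leave room for changes of more than 1 on the log2 scale. They do so in either direction for mmu-miR-200b and mmu-miR-141 (lower end -1.003), upward for mmu-miR-200c and downward for mmu-miR-200a. mmu-miR-429 was at 1.80 (SE 1.64, 95% interval -1.85 to 5.46, limma adjusted p = 0.791), a value set by the undetected control well: without that mouse the fold was -0.22.

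Of the members, 0 of 5 reached an unadjusted limma p under 0.05, where 8.50% of all miRs did, and in 0 of 5 were the groups apart without overlap, where they were in 5.38% of all miRs. The median fold of the members was 0.94 against -0.05 over all 353 miRs, with 4 of 5 positive beside 47% of all miRs. Both depend on the control mouse with the undetected mmu-miR-429 well. Without it mmu-miR-200a was at -0.38, mmu-miR-200b at -0.049 and mmu-miR-429 at -0.22, while mmu-miR-200c (0.90) and mmu-miR-141 (0.50) stayed positive. Centring on small-RNA control assays moved the median of all miRs to -0.66 and the fold of mmu-miR-200b to -0.40.

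The second contrast, 10 months against control, concerns the later stage. Here too 0 of 5 members rose and 0 of 5 fell, beside 4.53% of all miRs called by limma. The log2 fold was 0.45 for mmu-miR-200a (SE 0.52, 95% interval -0.71 to 1.61, limma adjusted p = 0.783) and -0.74 for mmu-miR-200b (SE 0.64, 95% interval -2.17 to 0.69, limma adjusted p = 0.687), neighbours in 1 cluster. Both folds lean on 1 mouse each: that of mmu-miR-200a was 0.06 without replicate 1 and that of mmu-miR-200b -0.10 without replicate 2 of the 10-month group. mmu-miR-200c was at -0.08 (SE 0.83, 95% interval -1.93 to 1.76, limma adjusted p = 0.985) and mmu-miR-141 at -0.02 (SE 0.96, 95% interval -2.15 to 2.10, limma adjusted p = 0.992). mmu-miR-429 was at 1.88 (SE 1.77, 95% interval -2.07 to 5.82, limma adjusted p = 0.708), and at -0.15 without the control mouse whose well was not detected. At an unadjusted p under 0.05 the count was 0 of 5 against 17.0% of all miRs, and 0 of 5 stood apart without overlap against 15.9%. The members' median fold was -0.02, and that of all miRs 0.0049.

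Between 10 and 3 months of the diet 0 of 5 members rose or fell, and limma called 0% of all miRs. The log2 fold was -1.02 for mmu-miR-200c (SE 0.83, 95% interval -2.87 to 0.83, limma adjusted p = 0.631), -0.99 for mmu-miR-141 (SE 0.96, 95% interval -3.11 to 1.14, limma adjusted p = 0.685) and -0.94 for mmu-miR-200b (SE 0.64, 95% interval -2.37 to 0.49, limma adjusted p = 0.571). mmu-miR-200a was at 0.58 (SE 0.52, 95% interval -0.58 to 1.74, limma adjusted p = 0.678) and mmu-miR-429 at 0.07 (SE 1.77, 95% interval -3.88 to 4.02, limma adjusted p = 0.989). None reached an unadjusted p under 0.05 or stood apart without overlap (0 of 5 each), against 13.0% and 12.2% of all miRs. The median was -0.94 over the members and 0.06 over all miRs. The 3 comparisons share mice, so their folds are not independent of each other.

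**Figure D3:**
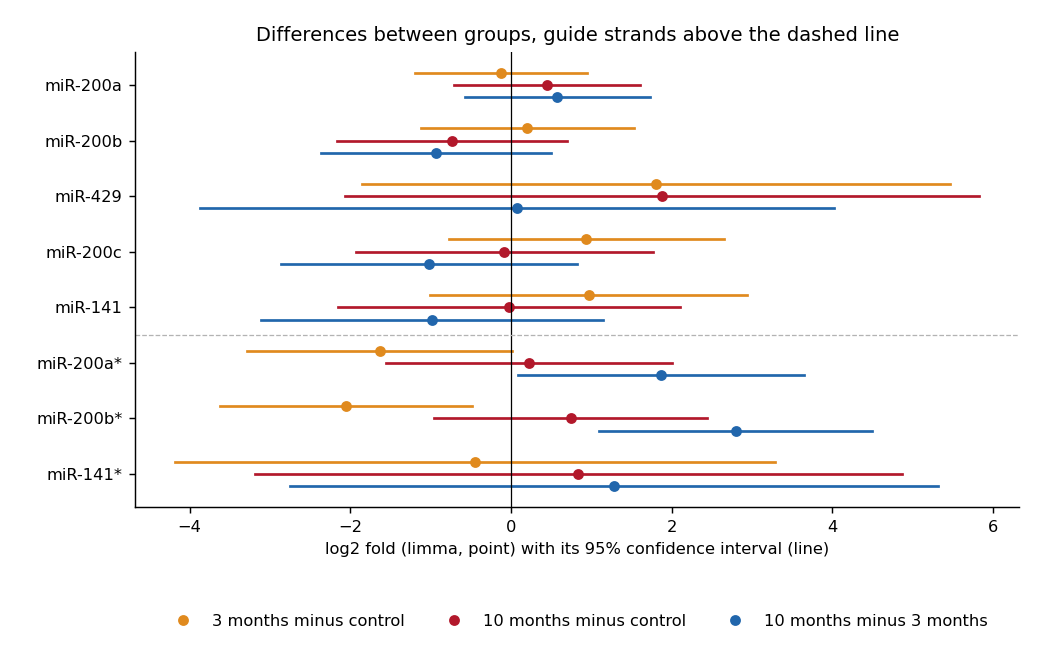
Log2 fold of the 5 guide strands and of the 3 tested passenger strands (rows) in the 3 comparisons (colours), with points at the limma estimate and lines over its 95% interval. All 15 intervals of the guide strands include 0, and that of miR-200a* at 10 against 3 months does not. All 3-month values of miR-200b* are the detection limit. Its intervals against the 3-month group therefore set readings against a fixed limit and are drawn as values only.

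Passenger strands are the opposite arms of the same hairpins and are usually degraded. Of 5 names on the list 4 had an assay, in the other of the 2 assay blocks than the guide strands. The sequences are shown because the passengers of mmu-miR-200a and mmu-miR-200b share a seed (AUCUUAC) that none of the guide strands has, and the other passengers differ from it.
mmu-miR-200a*: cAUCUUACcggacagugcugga
mmu-miR-200b*: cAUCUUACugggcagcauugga
mmu-miR-200c*: cGUCUUACccagcaguguuugg
mmu-miR-141*: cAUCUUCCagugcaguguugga

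Among these strands, mmu-miR-200b* lay near the detection limit and was read in some mice only. It was read at 32.3, 33.8 and 30.4 cycles in controls 1 to 3 and not detected in control 4. It was not detected in any of the 4 mice after 3 months, whose wells are all listed at 40 cycles. In the 3 mice after 10 months it was read at 32.3, 34.7 and 30.6 cycles. With a limit of 32 cycles 2 of 11 mice would count as detected and the strand would not be tested. The number of detected mice in the control and 10-month groups therefore rests on the limit of 35, while the 3-month wells are undetected at either limit. The guide strand mmu-miR-200b, far from the limit, was read at 25.2 to 26.4 cycles in the 4 mice of the 3-month group. mmu-miR-200b* passed the filter through the other groups, and its 3-month values are all the limit itself, so that their spread is that of the array centring. Its fits against the 3-month group therefore set readings against a fixed limit and are given as values only, with log2 folds of -2.06 at 3 months against control and 2.80 at 10 against 3 months. Neither was called, and at 10 months against control it was at 0.74 (SE 0.76, limma adjusted p = 0.732).

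mmu-miR-200a* was detected in 11 of 11 mice. Its level was -5.54, -6.44, -6.25 and -6.11 in controls, -9.15, -9.28, -6.49 and -5.96 after 3 months and -5.41, -5.59 and -6.57 after 10 months. Replicates 1 and 2 of the 3-month group were the low ones, with replicate 3 just below and replicate 4 within the range of the controls. The log2 fold was -1.63 at 3 months against control (SE 0.74, limma adjusted p = 0.569), 0.23 at 10 months against control and 1.86 at 10 against 3 months (SE 0.80, limma adjusted p = 0.353).

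mmu-miR-141* was not detected in control 3 and was otherwise read at 27.6 to 31.2 cycles, earlier than its guide strand in 5 mice. Its log2 folds were -0.45, 0.84 and 1.28 in the 3 comparisons in the order above, and the first became -2.41 and the second -1.13 without control 3. mmu-miR-200c* was read in 1 of 11 mice, at 34.5 cycles in replicate 4 of the 3-month group, and was not tested. Over the 3 tested passenger strands 0 rose and 0 fell in each comparison. The fits of mmu-miR-200b* against the 3-month group are not counted further, since its values there are all the limit. In the other fits only mmu-miR-200a* at 10 against 3 months, where it was higher, reached an unadjusted limma p under 0.05. Of all miRs 8.50% did so at 3 months and 17.0% at 10 months against control, and 13.0% at 10 against 3 months. Median folds of the 3 tested passenger strands, mmu-miR-200b* included, were -1.63, 0.74 and 1.86.

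**Figure D4:**
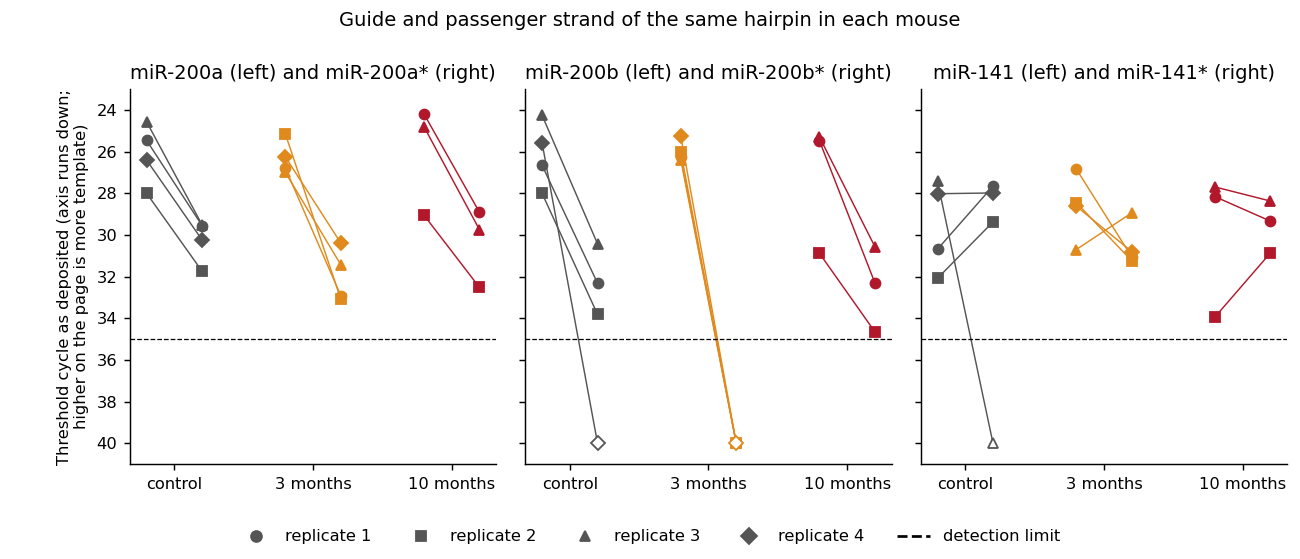
Threshold cycle as deposited (y axis, running down, so that higher on the page is more template) of the guide strand and the passenger strand of 3 hairpins, joined by a line for each mouse, with open symbols for wells not detected and the dashed line at 35 cycles. The passenger strand of miR-200b was not detected in any of the 4 mice after 3 months but was read in 3 of 3 mice after 10 months.

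Distances between assays within a mouse do not depend on a centring shared by the whole array, though centring each assay block by itself moves those between guide and passenger strands. The cycle difference between members of a cluster, or between guide and passenger strand, was therefore compared over mice in 21 exact two-sided permutation tests, with p-values adjusted over the 21 by Benjamini-Hochberg. With 3 or 4 mice a group the smallest p such a test can give is 0.0286. mmu-miR-200b came 0.01 ± 0.86 cycles (SD, n = 4) after mmu-miR-200a in controls, -0.32 ± 0.82 cycles (SD, n = 4) in the 3-month mice and 1.20 ± 0.68 cycles (SD, n = 3) in the 10-month mice. The exact p was 0.543 for the early contrast with control, 0.114 for the late one and 0.0857 between both diet groups, with adjusted values of 0.84, 0.599 and 0.599.

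mmu-miR-141 followed mmu-miR-200c by nearly the same distance in each group: 2.94 ± 1.07 cycles (SD, n = 4) in controls, 2.91 ± 1.96 (SD, n = 4) in 3-month mice and 2.88 ± 0.63 (SD, n = 3) in 10-month mice, with exact p of 0.943 or more. The distance from mmu-miR-200b to its passenger strand was 5.29 ± 1.53 cycles (SD, n = 3) in 10-month mice. With undetected wells at 35 cycles it was 6.77 ± 1.79 cycles (SD, n = 4) in controls, where 1 well was not detected, and 9.03 ± 0.51 (SD, n = 4) in 3-month mice, where no well was detected. Both are lower bounds, and with a limit of 32 cycles the difference between 10 and 3 months went from -3.74 to -1.72 cycles. None of the 21 tests passed after adjustment, and no single test could have passed, since the smallest possible p alone adjusts to above 0.05.

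Across mice the levels of some pairs of members ran together and those of others did not. As a description over 11 mice (10 with mmu-miR-429), Pearson r was 0.75 between mmu-miR-200b and mmu-miR-200c, which share the seed but lie on different chromosomes, and 0.74 between the cluster partners mmu-miR-200a and mmu-miR-429. It was 0.60 for mmu-miR-200b with mmu-miR-141 and 0.50 for the cluster partners mmu-miR-200c and mmu-miR-141. The cluster partners mmu-miR-200b and mmu-miR-429 had 0.45, mmu-miR-200a and mmu-miR-200b had 0.27, and mmu-miR-200a and mmu-miR-141, which share a seed, -0.004. The lowest was -0.22, for mmu-miR-141 with mmu-miR-429 of the other cluster. All 4 pairs within a cluster were positive, the 6 pairs between clusters ran from -0.22 to 0.75, and the difference between both kinds of pair was not tested. These r values pool the 3 groups. Taken around the group means, r was 0.52 for mmu-miR-200a with mmu-miR-200b and 0.40 for mmu-miR-200c with mmu-miR-141. It was 0.77 for mmu-miR-200b with mmu-miR-200c, 0.59 for mmu-miR-200b with mmu-miR-141 and 0.10 for mmu-miR-200a with mmu-miR-141. Over all pairs of miRs detected in every mouse in the same assay block the median r was 0.06, with quartiles of -0.23 and 0.35. All these points share the array of a mouse and its centring.

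**Figure D5:**
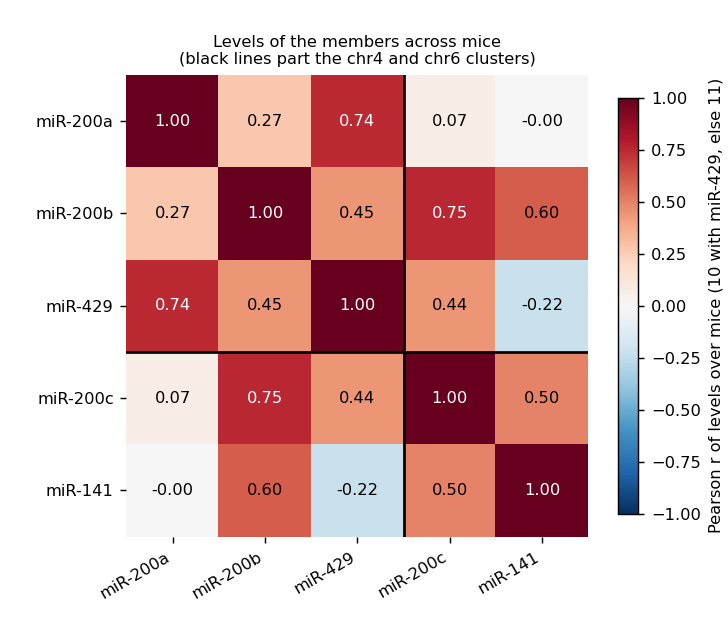
Pearson correlation of the levels of each pair of guide strands over 11 mice (10 for pairs with miR-429), with colour and number giving r and black lines parting the 2 clusters. The highest value off the diagonal, 0.75, joins miR-200b and miR-200c of different clusters, and miR-200a and miR-141 stand at -0.004.

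The mean level of the 4 members detected in every mouse was -2.92 ± 0.88 (SD, n = 4) in controls, -2.43 ± 0.50 (SD, n = 4) in 3-month mice and -3.02 ± 1.00 (SD, n = 3) in 10-month mice. It was lowest, at -4.15, in replicate 2 of the 10-month group, the mouse with the latest array. Over the 11 mice its r with the mean cycle of the array was -0.64, and the part of array signal in the spread of the family was not tested. The miRs whose level followed this mean most closely, out of 281 other miRs detected in every mouse, were miR-411 (r 0.91, Spearman rho 0.82), miR-706 (r 0.89), miR-467b* (r 0.86), miR-340-5p (r 0.85) and miR-135a* (r 0.84). Without the 2 mice farthest from the median of the family mean, the r of miR-411 was 0.79 and that of miR-135a* 0.59. None of these is an epithelial miR of the list, whose 13 members detected in every mouse had r from -0.60 (miR-183*) to 0.45 (miR-449a).

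No epithelial miR outside the family passed limma either. Of the list's 15 tested members 0 rose and 0 fell in each comparison. At an unadjusted limma p under 0.05, 2 of the 15 were lower at 3 months, where 8.50% of all miRs passed. At 10 months 2 were higher and 1 lower, where 17.0% of all miRs passed. At 10 against 3 months 0 passed, against 13.0% of all miRs. Groups did not overlap in 1, 3 and 0 of the 15, against 5.38%, 15.9% and 12.2% of all miRs. The miRs named below are counted among these. Median folds of the 15 were 0.09, 0.25 and 0.34 in the 3 comparisons.

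miR-31*, the passenger strand of miR-31, a miR of epidermis and other epithelia, stood at 2.32 ± 0.13 (SD, n = 4) in controls, 1.42 ± 0.62 (SD, n = 4) in 3-month mice and 1.02 ± 0.43 (SD, n = 3) in 10-month mice, and neither diet group overlapped the controls. Its log2 fold at 10 months was -1.30 (SE 0.37, limma adjusted p = 0.0738). At 3 months it was -0.91 (SE 0.34, limma adjusted p = 0.441). The guide strand miR-31 was at -0.12 at 3 months (SE 0.27, limma adjusted p = 0.940). At 10 months miR-31 was at -0.49 (SE 0.29, limma adjusted p = 0.525). Of the alternatives run, miR-31* was called at 10 months only under 2. These were centring each assay block by itself (limma adjusted p = 0.0087) and testing only miRs detected in every mouse (limma adjusted p = 0.0449).

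miR-34b-3p, a target of p53 that is abundant in ciliated epithelium, averaged -1.35 ± 0.46 (SD, n = 4) in controls, and the 10-month mice, at 0.30 ± 0.83 (SD, n = 3), did not overlap them. Its log2 fold there was 1.65, with SE 0.48 and a limma adjusted p of 0.0764. Of the other tested miRs of ciliated cells, miR-34c was at 1.81 at 10 months (SE 1.03, limma adjusted p = 0.486). miR-449a was at 0.33 (SE 0.54, limma adjusted p = 0.863). miR-34b-3p was called only when miRs detected in every mouse alone were tested (limma adjusted p = 0.0449) and with array weights (limma adjusted p = 0.0393). These calls and those of miR-31* were the only 4 among 373 fits of the 15 listed miRs under the alternatives at 10 months. Neither miR was called with control assays, no normalization, the deposited values or only the 2 groups compared. miR-182 of the sensory miR-183 cluster was at 1.12 at 10 months (SE 0.42, limma adjusted p = 0.178), and its cluster partner miR-96 at -2.56 at 3 months (SE 0.82, limma adjusted p = 0.441). miR-96 was detected in 3 of 4 mice of the 3-month group, and its fold was -1.90 with undetected wells left missing. At 3 months miR-182 was at 0.62, miR-183 at 0.09 and miR-183* at -0.35. At 10 months miR-96 was at -0.60, miR-183 at -0.24 and miR-183* at 0.25.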

How the data were processed

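The authors deposited threshold cycles and a second table of normalized values, both on a log2 scale, for 11 arrays of 1 mouse each. Per the labels, RNA was extracted with the mirVana kit, and per the design text its integrity number exceeded 8. The sources used here do not name instrument, reagents or software. In the second table the values equal the cycle minus the mean of snoRNA202 and snoRNA429, found by setting the tables side by side.

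Levels were minus the cycle, floored at 35 cycles and centred per array on the 285 miRs detected in all mice. The 353 miRs detected in at least 3 mice of at least 1 group were tested in 1 fit of all 3 groups (lmFit and eBayes, limma 3.58.1, R 4.3.3; 8 residual and 2.11 prior degrees of freedom, prior SD 0.61), two-sided, with Benjamini-Hochberg adjustment over the 353. The fit was tested on simulated data. Exact permutation tests used scipy 1.17.1. The precision of a PCR array is limited here by the number of mice, with a median SE of a log2 fold of 0.46 at 3 months and 0.49 at 10 months against control. The labels call the samples biological replicates.

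The text names the members, their passenger strands, 17 other epithelial miRs and the 5 miRs most correlated with the mean of the members detected in every mouse, and tissue markers. Members, lists and tests were chosen with earlier results of these data known. Alternatives were the array median, control assays (U6, U87, snoRNA135, snoRNA202, snoRNA429), quantile or no normalization, centring per assay block, the deposited table, a limit of 32 cycles, undetected wells left missing, other filters, fitting 2 groups at a time, a replicate block, array weights, a robust variance trend and leaving out each mouse. Those for distances within a mouse were chosen after seeing the data. Undetected wells of a group with no reading give no fold where wells are left missing.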

Additional observations from a re-analysis of the deposited data

Results flagged for a closer look

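Of 45 groups of 4 mice examined, 2 held a value far from the rest by Dixon's criterion, which chance meets in about 1 in 20 groups. The level of mmu-miR-429 in control replicate 2 was -9.7035, a well at 40 cycles, while the other controls lay between -1.79 and -1.19. The level of mmu-miR-141* in control replicate 3 was -11.7388, also a well at 40 cycles, while the other controls lay between -4.07 and -3.64. In a strand that was not tested, mmu-miR-200c*, a cycle of 34.546 was read in replicate 4 of the 3-month group, while 0 of 4 controls gave a reading.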

How the results depend on the processing

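No member was called in any comparison under any of the alternatives run (smallest limma adjusted p 0.4524 early and 0.5371 late against control, and 0.32 between both diet groups). Signs of some folds did turn, among them those of mmu-miR-429, the largest of the members against control. These turned where its undetected control well was left missing or that mouse was left out. For the other folds the cause was not tested. At 3 months mmu-miR-200b was at -0.4044 with control assays, -0.1565 with the deposited normalized values and -0.1157 with array weights, mmu-miR-429 at -0.2274 with undetected wells missing, and mmu-miR-141* at 0.4475 with the deposited values. At 10 months mmu-miR-200c was at 0.1582 with the array median, 0.1108 with control assays, 0.1792 with quantile normalization, 0.1391 with the deposited values and 0.4391 with array weights. mmu-miR-141 was at 0.2204, 0.1731, 0.5456, 0.2013 and 0.4492 in the same order, and at 0.5966 with a limit of 32 cycles. With undetected wells missing, mmu-miR-429 was at -0.1561 and mmu-miR-141* at -1.133 at 10 months. Without normalization mmu-miR-200a* was at -0.1312 at 10 months and mmu-miR-429 at -0.2291 at 10 against 3 months.

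Leaving out each mouse in turn gave these ranges for folds that turned sign. At 3 months they were -0.3806 to 0.1956 for mmu-miR-200a, -0.1088 to 0.5291 for mmu-miR-200b, -0.2248 to 2.62 for mmu-miR-429 and -2.408 to 0.2827 for mmu-miR-141*. At 10 months they were -0.5937 to 0.4966 for mmu-miR-200c, -0.482 to 0.7888 for mmu-miR-141, -0.1477 to 2.687 for mmu-miR-429 and -1.129 to 1.567 for mmu-miR-141*. At 10 against 3 months mmu-miR-429 ranged from -0.4329 to 0.369, and the 3-month difference in the distance from mmu-miR-200a to mmu-miR-200b from -0.7226 to 0.06675 cycles. Other folds kept their sign but moved by over 1.5 times: mmu-miR-200c at 3 months (0.4279 to 1.525) and mmu-miR-141 (0.4996 to 1.466), at 10 months mmu-miR-200a (0.05634 to 0.7728) and mmu-miR-200b (-1.091 to -0.1029), and at 10 against 3 months mmu-miR-200a (0.1832 to 0.8886), mmu-miR-200b (-1.292 to -0.3147), mmu-miR-200c (-1.487 to -0.5342) and mmu-miR-141 (-1.442 to -0.1879). Over all alternatives the distance from mmu-miR-200b to its passenger strand differed by 0.5373 to 3.142 cycles at 3 months, by -2.249 to -0.594 at 10 months and by -4.505 to -1.72 at 10 against 3 months.

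The number of miRs called over the whole table, 16 at 10 months, was 0 with control assays, no normalization, the deposited values or only these 2 groups fitted, 1 with no filter, 29 with only miRs detected in every mouse, 25 with array weights and 1 to 12 without 1 mouse. At 10 against 3 months the count of 0 became 4 with quantile normalization, 5 with each assay block centred by itself, 1 with the deposited values, 1 with a variance trend and 10 with array weights. At 3 months it was 0 to 1 without 1 mouse.

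Of 10 pairs of mice with the same replicate number 7 deviated together with a correlation over 0.1 (range -0.356 to 0.469), not all, so the numbers were not taken as pairs. As a hint from the data, 7 of 8 mice correlated best with their own number between 3 months and control, and 3 of 6 in each other comparison. With the replicate block 6 miRs were called at 10 months, mmu-miR-200c was at 0.4464 and mmu-miR-141 at 0.2634. At 3 months mmu-miR-200c kept its fold with an SE of 0.5217 in place of 0.77 (limma adjusted p = 0.5168), and no member was called. Group sizes of 3 and 4 mice limit all folds, and the spread of the members within groups limits those of the family further.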
